A study of Rattus norvegicus with 24 samples.

Results

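Voltage-gated sodium and calcium channels were examined as 1 set of 40 genes in rat frontal cortex. The members are the reference genes whose name begins with Scn and a digit, or with Cacna, Cacnb or Cacng, and they are 14 sodium channel and 26 calcium channel genes among the 32883 reference genes of the tables. The rule used gene names only, but it was chosen with earlier results of these data known. RNA-Seq had been run on 24 adult male Sprague-Dawley rats, 24 h after inhalation of an aerosol, with 8 rats in each of 3 groups. The Control group is labelled 0 mg/m3, the Low group 5 mg/m3 and the High group 80 mg/m3 of tungsten particles. All 24 rats are of the same strain and sex, and the design addresses whether the exposure alters expression in the brain. The extraction protocol in the labels speaks of cell lines of the frontal cortex, while the study describes tissue biopsies from animals.

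Voltage-gated sodium channels open when a neuron is depolarised and carry the rising phase of the action potential. Their alpha subunit forms the pore, and small beta subunits with an immunoglobulin-like domain adjust gating and surface expression. Voltage-gated calcium channels turn depolarisation into calcium entry. Their alpha1 subunit forms the pore and sets the current type, the intracellular beta subunit and the extracellular alpha2delta subunit bring it to the membrane, and a gamma family was named after a subunit of the skeletal muscle channel. Most gamma genes expressed in brain encode TARPs, proteins that escort AMPA-type glutamate receptors. In cortex, P/Q-type and N-type channels open at presynaptic terminals and start transmitter release, L-type channels couple activity to gene expression, and T-type channels support burst firing.

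Expression was measured as coverage, the mean read depth over the bases of a gene, divided by its sum over the reference genes of that rat and multiplied by 1000000. This scaled coverage is per base, so levels of different genes can be set side by side. Of the 40 members, 31 averaged 1 or more across the 24 rats and were tested. The other 9 lay below it, namely Scn4a, Scn7a, Scn10a, Scn11a, Cacna1f, Cacna1s, Cacna2d4, Cacng1 and Cacng6. The tables hold no read counts, and the precision of counting is not known. Neuron markers were high in all 24 rats, with a summed level of 1148 to 2067 over 6 genes that include Snap25 and Slc17a7, so neuronal RNA was present in every rat. Markers of striatum, a neighbouring region, were also present, and their summed level over 8 genes ranged from 222 to 1698. Control rat 49 and Low rat 57 stood apart from their groups in many channel genes, and results that rest on them are given with and without them.

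Promoter sequence from RefSeq (assembly GRCr8) was held for 27 of the 40 members. In the 250 bases before the transcription start, the members' windows held 1 to 56 CpG dinucleotides with a median of 12.5, against a median of 5 over all 33469 windows. Scn8a and Scn2b, which were both low in the same rats as described further on, are shown because they lie near opposite ends of that range, with 53 CpGs for Scn8a (chr7:133860977-133861226, + strand) and 1 for Scn2b (chr8:54322133-54322382, + strand). Capitals mark CpGs in these 2 sequences.
Scn8a: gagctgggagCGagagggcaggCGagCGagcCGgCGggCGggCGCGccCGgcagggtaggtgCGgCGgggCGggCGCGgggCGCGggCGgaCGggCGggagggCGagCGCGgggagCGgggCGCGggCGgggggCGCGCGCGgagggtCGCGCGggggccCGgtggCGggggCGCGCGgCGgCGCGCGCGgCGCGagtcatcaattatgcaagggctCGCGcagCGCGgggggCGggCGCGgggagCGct
Scn2b: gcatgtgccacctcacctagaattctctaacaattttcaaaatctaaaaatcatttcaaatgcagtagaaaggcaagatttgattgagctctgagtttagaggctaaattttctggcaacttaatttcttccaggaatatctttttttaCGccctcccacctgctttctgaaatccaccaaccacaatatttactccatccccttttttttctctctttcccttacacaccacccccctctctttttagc

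Cacng3, which had the largest log2 fold change of the TARP genes in both comparisons with Low, is shown for another feature (chr1:186632312-186632561, + strand). Its window was the only one among the members to hold CAGCACC, the left part of the RE1 element that the repressor REST binds, on either strand, and 5.43% of all windows held these letters. It held them 2 times, each followed 2 bases later by GGAC, an arrangement found in 0.0508% of all windows. Capitals mark both matches.
Cacng3: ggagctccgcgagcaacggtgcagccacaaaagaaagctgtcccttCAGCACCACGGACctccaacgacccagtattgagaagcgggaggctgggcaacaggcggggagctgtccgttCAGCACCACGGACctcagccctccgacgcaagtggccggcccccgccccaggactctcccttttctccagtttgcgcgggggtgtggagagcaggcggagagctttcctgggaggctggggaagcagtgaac

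A match describes the letters only, and the whole RE1 core was found in none of the members' windows. GGGGCGGGG, a GC box, was found in windows of 5 members and in 9.0% of all windows. TATAAA was found in windows of Cacna1s and Cacng2 and in 12.9% of all windows.

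Among the sodium channel pore subunits, Scn2a (Nav1.2) had the highest level in Control, from 72.1 to 126 with a median of 113. Scn8a (Nav1.6), the main channel of mature axon initial segments, followed at 15.7 to 84.1 with a median of 69.4. Scn1a (Nav1.1), which is abundant in fast-spiking interneurons, ranged from 25.4 to 53.4 with a median of 33.7. Scn2a therefore took the largest share of this class, at a median share of 46.9% of the summed pore subunit level, with 28.8% for Scn8a, 14.8% for Scn1a and 8.97% for Scn3a. Scn3a (Nav1.3), known for its expression in immature neurons, was at a median of 23.2. Scn9a, best known from sensory neurons, was low at a median of 1.21. The skeletal muscle channel Scn4a and the sensory neuron channels Scn10a and Scn11a stayed under 1 in every rat, and Scn10a was listed at 0 in 12 of the 24 rats. The atypical channel Scn7a, which is not gated by voltage like the others, reached 1.45 in 1 Low rat and was listed at 0 in another.

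Among the sodium channel beta subunits, Scn2b, which is linked to the alpha subunit by a disulfide bond, ranged from 49.6 to 188 with a median of 168. Scn3b lay between 68.6 and 122 (median 105), and Scn4b, the source of resurgent current in some neurons, between 57.7 and 103 (median 66.5).

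Among calcium channel pore subunits, Cacna1a (P/Q type) was highest in Control, from 32.4 to 64.1 with a median of 52.9. Cacna1b (N type) had a median of 28.7 and Cacna1e (R type) a median of 8.39, from 1.59 to 12.1. The T-type genes were expressed at a similar height, with medians of 38.0 for Cacna1i, 30.4 for Cacna1g and 17.8 for Cacna1h. The L-type genes had medians of 13.7 for Cacna1d (Cav1.3) and 5.45 for Cacna1c (Cav1.2). The retinal gene Cacna1f stayed at or under 0.253 in every rat, and the skeletal muscle gene Cacna1s at or under 1.11. Reference rows for Cacna1c and Cacna1e hold only part of their loci, as described further on, so their order against other genes is uncertain. The assembled loci of Scn8a, Scn2b, Cacna1d, Cacna1i, Cacna2d1, Cacnb4 and Cacng2 also ran more than 1000 bases past the 3′ end. The same limit applies to the order and shares of these genes.

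The auxiliary calcium channel genes span a wide range. Cacnb3 was the highest of the beta subunits at 101 to 185 in Control (median 169), followed by Cacnb1 (67.8 to 85.5, median 79.9), Cacnb4 (10.95 to 61.8, median 49.7) and Cacnb2 (median 18.7). Of the alpha2delta subunits, Cacna2d3 had a median of 66.3 and Cacna2d1, the binding site of gabapentin, a median of 68.3. Cacna2d2, which also binds gabapentin, had a median of 25.9, and Cacna2d4, known from photoreceptors, did not exceed 0.296 in any rat. The beta genes summed to a median of 314 and the alpha2delta genes to 172, against 204 for the 10 alpha1 genes.

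The 6 TARP genes summed to a median of 434 in Control with a range of 393 to 465. Cacng7 led at 117 to 141 (median 128), followed by Cacng3 at 89.0 to 105 (median 95.5) and Cacng8 at 84.8 to 109.7 (median 90.1). Cacng2, which encodes stargazin, had a median of 58.3, Cacng4 of 40.4 and Cacng5 of 11.1. The coefficient of variation over the 8 Control rats was 5.39% for Cacng3 and 5.81% for Cacng7, against 39.5% for Cacna1e and 44.3% for Scn9a. The skeletal muscle gamma gene Cacng1 and its relative Cacng6 stayed at or under 0.410 and 0.959. Cacng8 also holds the microRNA gene Mir935 on the same strand, whose median unscaled coverage was 208 for Control and 235 for High, but 0.801 for Low. The Low tables differ in kind from the others, as described further on, so dose and kind of table cannot be told apart here.

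In the order of Control means, neighbouring genes kept the same order in all 8 rats at only 8 of 39 steps. Among these were the steps from Cacng7 to Scn2a, Scn2a to Scn3b, Cacng8 to Cacnb1, Cacna1b to Scn3a, Cacnb2 to Cacna1d and Scn9a to Cacng6. At the 31 steps where the order did not hold, the neighbours did not differ beyond the spread between rats.

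**Figure D1:**
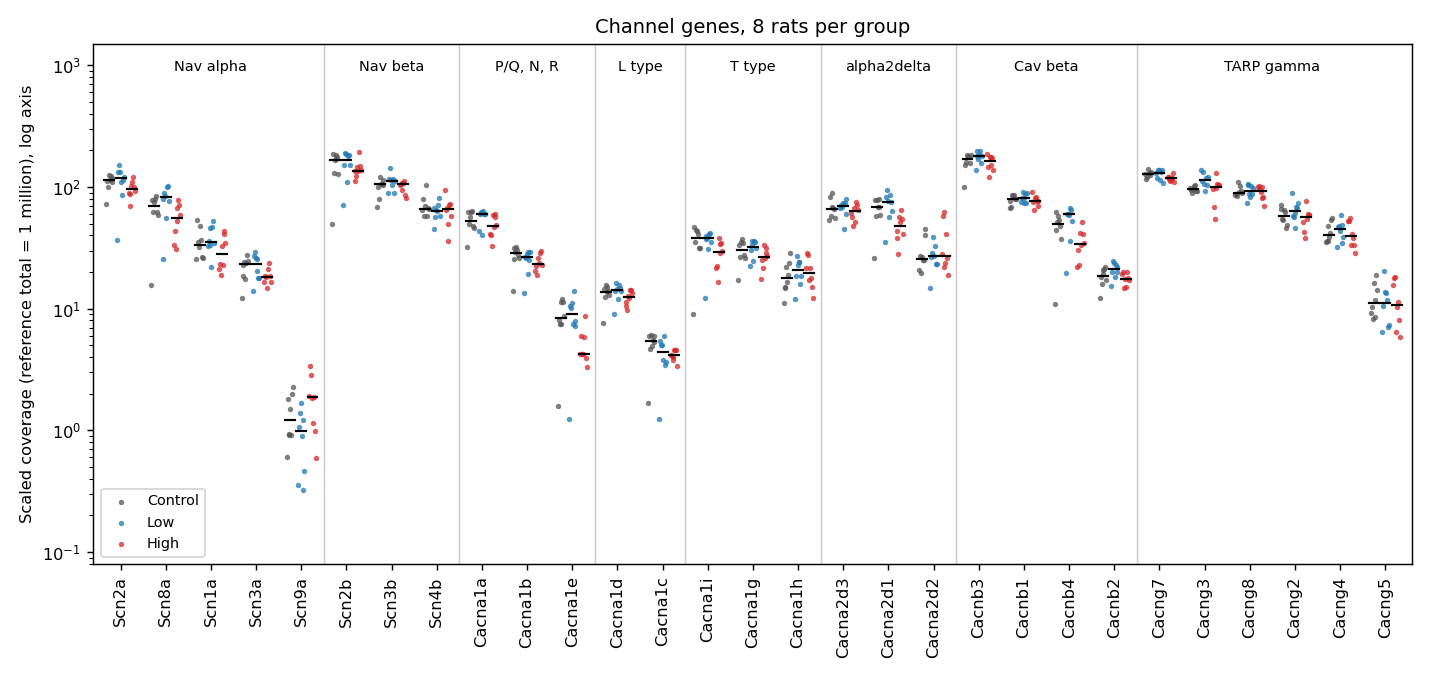
Scaled coverage of 29 of the channel genes tested (log axis), with 1 point per rat and a black bar at the median of each group of 8 rats. The TARP genes Cacng7, Cacng3 and Cacng8 are tight within Control, and single low points for Scn8a, Cacna1e, Cacna1i and Cacnb4 belong to Control rat 49 and Low rat 57.

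Across the 3 groups the ranges of the leading genes overlapped. Scn2a ranged from 36.8 to 151 in Low (median 118) and from 69.8 to 120.1 in High (median 96.8). Scn8a ranged from 25.6 to 102 in Low and from 31.1 to 78.4 in High (median 56.1). The lowest Low value of both genes was that of rat 57, and their High medians were below those of Control and Low. Scn1a had medians of 35.3 for Low and 28.1 for High. Of the beta subunits, Scn2b had medians of 167 for Low and 136 for High, and Scn3b of 113 and 106.

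Calcium channel pore genes had the same leading members in each group. Cacna1a ranged from 40.4 to 63.8 in Low (median 60.0) and from 33.0 to 59.5 in High (median 47.8). Cacna1i, the highest T-type gene by median in each group, had medians of 37.8 for Low and 29.3 for High, and Cacna1d, the highest L-type gene, of 14.3 and 12.5. The sum over the 10 alpha1 genes was close in Low and Control, at a median of 204 in both, and 166 in High. Cacnb3 ranged from 138 to 199 in Low and from 122 to 187 in High, and Cacnb1 from 74.2 to 91.3 and from 65.3 to 90.8. Both beta subunits stayed narrow in their spread, while Cacnb4 reached from 19.6 to 67.3 in Low and from 22.1 to 51.8 in High. Cacng7, the highest TARP gene at the median of each group, ranged from 109 to 139 in Low and from 111 to 130.5 in High. Cacng8 ranged from 74.4 to 106 in Low and from 69.9 to 101 in High. The sum over the 6 TARP genes had medians of 449 for Low and 411 for High, and the sum over all 40 members of 2160.1 and 1869, against 2067 in Control. These sums are given without a test.

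For Low against Control no channel gene passed the threshold. The Low tables differ in kind from those of Control and High, as described further on. In any comparison with Low, dose and kind of table therefore cannot be told apart. Of the 31 members tested with limma on log2(scaled coverage + 1), 0 had a Benjamini-Hochberg adjusted p under 0.05 for Low against Control, against 6.11% of all 15644 genes tested. At an unadjusted p under 0.05 the count was 0 members, against 18.4% of all genes. With the exact Wilcoxon rank-sum test the count was 1 before adjustment, against 2726 of all 15644 genes, and 0 after, against 2.38% of all genes. For every member the Low and Control values overlapped, while 1.53% of all genes had groups that did not overlap. The log2 fold change was positive for 20 of the 31 members, with a median of 0.054 against 0.062 over all genes. The direction varied with the outlying rats. Without Control rat 49, 10 of 31 were positive and the median was -0.026, against 0.019 over all genes. Without Low rat 57, 23 of 31 were positive and the median was 0.14, against 0.074. Without both rats, 20 of 31 were positive and the median was 0.039, against 0.040.

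The values nearest to a difference with the low dose were in a TARP gene. Cacng3 ranged from 92.0 to 139 in Low (median 115) and from 89.0 to 105 in Control. Its log2 fold change was 0.25 (SE 0.12, adjusted p = 0.27), and 6 of the 8 Low rats lay above the highest Control rat. Scn8a had a median of 82.2 in Low against 69.4 in Control (log2 fold change 0.27, SE 0.30, adjusted p = 0.67), and Cacnb4 59.7 against 49.7 (0.24, SE 0.29, adjusted p = 0.69). These were the 3 largest positive values, and without Control rat 49 that of Scn8a came to 0.0043 and that of Cacnb4 to -0.022, while that of Cacng3 was 0.26 (adjusted p = 0.32). Among the negative values were those of 2 low genes. Scn9a ranged from 0.322 to 1.68 in Low and from 0.607 to 2.27 in Control, with a log2 fold change of -0.30 (SE 0.20, adjusted p = 0.45). Cacna1c had a log2 fold change of -0.23 (SE 0.20, adjusted p = 0.56). For tightly measured genes the intervals were narrow: Cacng7 differed by -0.0052 with a 95% interval of -0.12 to 0.11 on the log2 scale, and Cacng8 by -0.011 (-0.18 to 0.16).

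The high dose gave 0 calls among the channel genes and 0% of all 15644 genes with an adjusted p under 0.05. At an unadjusted p under 0.05 there was 1 member, against 2.11% of all genes. The exact Wilcoxon rank-sum test gave 4 members before adjustment, against 887 of all 15644 genes, and 0 after, against 0% of all genes. The High and Control values overlapped for all 31 members, and 0.00639% of all genes had groups that did not overlap. Only 5 of 31 members had a positive log2 fold change. The median over the members was -0.12, against -0.031 over all genes. It was also negative with median-of-ratios scaling (-0.080, against 0.0041) and with scaling to nuclear genes (-0.093, against -0.0086). Without any scaling, which leaves differences in total coverage between rats in place, it was 0.063, against 0.14 over all genes. The members' median lay below that of all genes in each of these.

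Cacna1e had the largest negative value with the high dose. It ranged from 3.30 to 8.67 in High (median 4.26) and from 1.59 to 12.1 in Control (median 8.39), with a log2 fold change of -0.57 (SE 0.32, adjusted p = 0.999). Cacna2d1 followed at a median of 47.4 against 68.3 (-0.41, SE 0.21, adjusted p = 0.999) and Cacnb4 at 34 against 49.7 (-0.30, SE 0.29, adjusted p = 0.999). In each of these 3 genes the lowest Control value was that of rat 49. The largest positive values were 0.23 for Scn9a (SE 0.20), 0.20 for Cacna2d2 (SE 0.23) and 0.10 for Cacna1h (SE 0.19), each with an adjusted p of 0.999. Cacng7, the member with an unadjusted p under 0.05, was 111 to 130.5 in High and 117 to 141 in Control, with a log2 fold change of -0.12 and a 95% interval of -0.23 to -0.0025.

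Low against High also gave 0 calls among the 31 members, against 11.7% of all genes. At an unadjusted p under 0.05 there were 4 members, against 29.1% of all genes, namely Cacna2d1, Scn9a, Cacng3 and Cacnb2. The exact Wilcoxon rank-sum test gave 8 before adjustment, against 5213 of all 15644 genes, and 0 after, against 7.33% of all genes. The groups overlapped for all 31 members, while 2.26% of all genes did not overlap. The log2 fold change was positive for 26 of 31 members, with a median of 0.12 against 0.091 over all genes. The median was also positive with median-of-ratios scaling (0.025, against -0.0029) and with scaling to nuclear genes (0.12, against 0.091). Without any scaling, which leaves differences in total coverage in place, it was -0.088, against -0.12 over all genes.

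Cacna1e, Cacna2d1 and Cacnb4 were again the genes with the largest values. Cacna2d1 ranged from 35.3 to 94.2 in Low (median 75.7) and from 28.1 to 64.6 in High (median 47.4), and its log2 fold change was 0.57 (SE 0.21, adjusted p = 0.081). Cacna1e had a median of 9.06 in Low against 4.26 in High (0.57, SE 0.32, adjusted p = 0.25), and Cacnb4 59.7 against 34 (0.55, SE 0.29, adjusted p = 0.21). Most Low rats lay above most High rats in these genes, with Low rat 57 at the low end. In the other direction Scn9a differed by -0.53 (SE 0.20, adjusted p = 0.091) and Cacna2d2 by -0.28 (SE 0.23, adjusted p = 0.42). The 3 comparisons share rats, so their values for a gene are not independent.

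**Figure D2:**
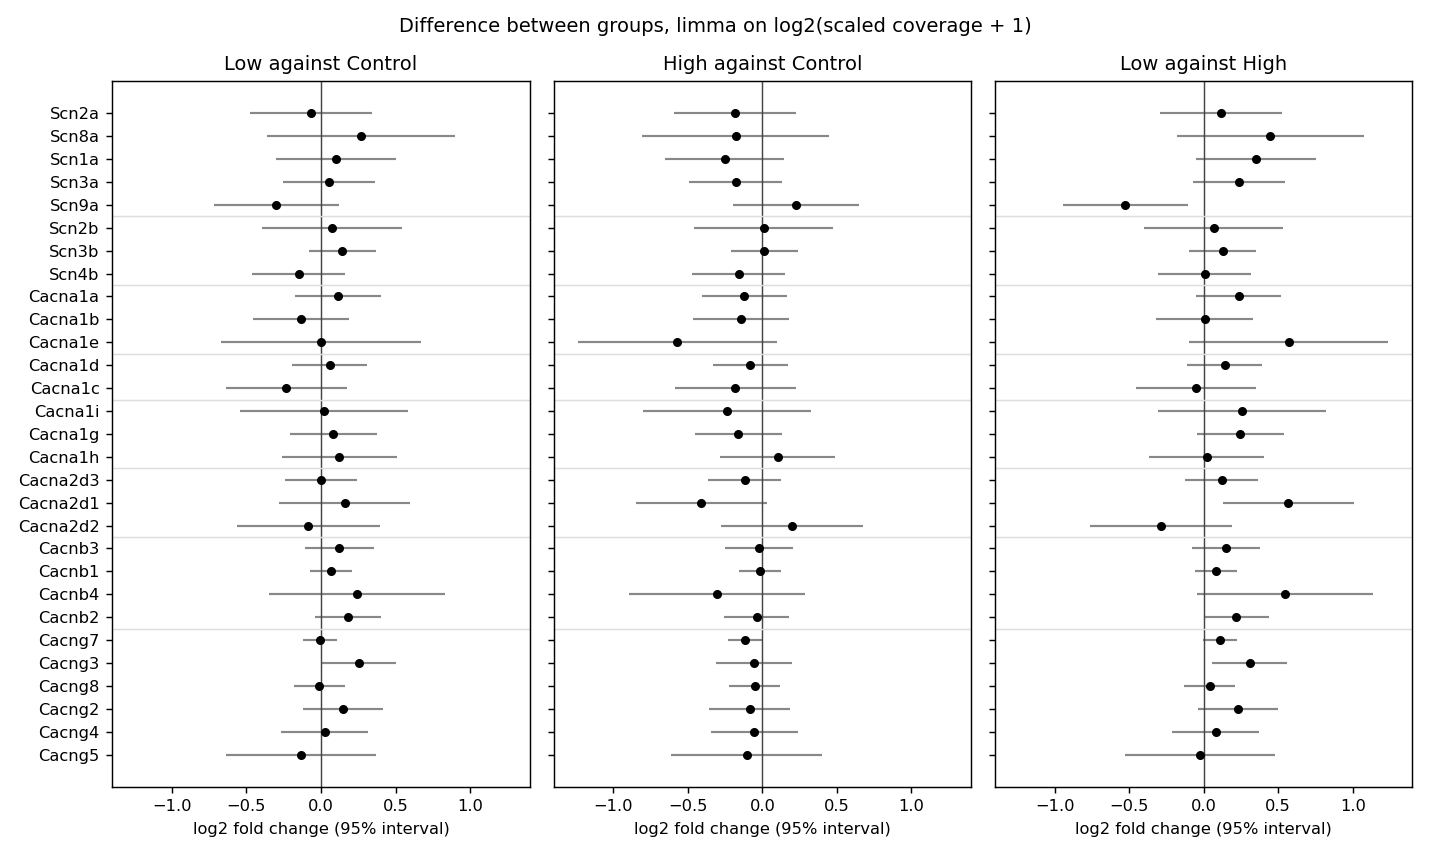
Log2 fold change of 29 of the tested channel genes with its 95% interval from limma, for Low against Control, High against Control and Low against High. Grey horizontal lines divide the subunit classes. Most points lie left of 0 for High against Control and right of 0 for Low against High, and none passed the adjusted threshold.

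The largest differences were between rats of 1 group. In Control rat 49 the level was the lowest of its group for 22 of the 31 members, and in Low rat 57 for 21 of 31, against 49.4% and 36.6% of all tested genes. Cacna1e was at 18.9% of its group's median in rat 49 and 13.8% in rat 57. Scn8a was at 22.6% and 31.1%, Cacnb4 at 22.0% and 32.9%, Cacna1i at 23.8% and 32.4%, and Cacna1c at 30.8% and 28.6%. The pattern crossed the classes, as it took in a sodium and several calcium pore genes, a beta subunit, an alpha2delta subunit (Cacna2d1 at 38.1% and 46.7%) and Scn2b (29.6% and 42.9%). It did not take in every member: Cacng7 was at 99.1% and 98.4% of the median, Cacng3 at 103% and 121%, and Cacng2 at 121% and 140.4%. Scn2a was at 63.6% in rat 49 and at 31.2% in rat 57. Neuron markers summed to 1509 in rat 49, the lowest of Control, and to 1761 in rat 57, which is within the range of Low. The summed markers of astrocytes (514 and 587), oligodendrocyte precursors (23.2 and 26.2) and endothelium (14.2 and 18.2, from Flt1 alone) were the lowest of their groups in both rats. In rat 57 but not rat 49, striatum (319) and microglia (63.8) markers were also lowest of the group. Parvalbumin interneuron markers were the highest of Low in rat 57 (409). Choroid plexus markers summed to 69.9 in rat 49, against 1.49 to 23.4 in the other Control rats, and to 3.86 in rat 57. The part of these cell types in the channel values was not tested.

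**Figure D3:**
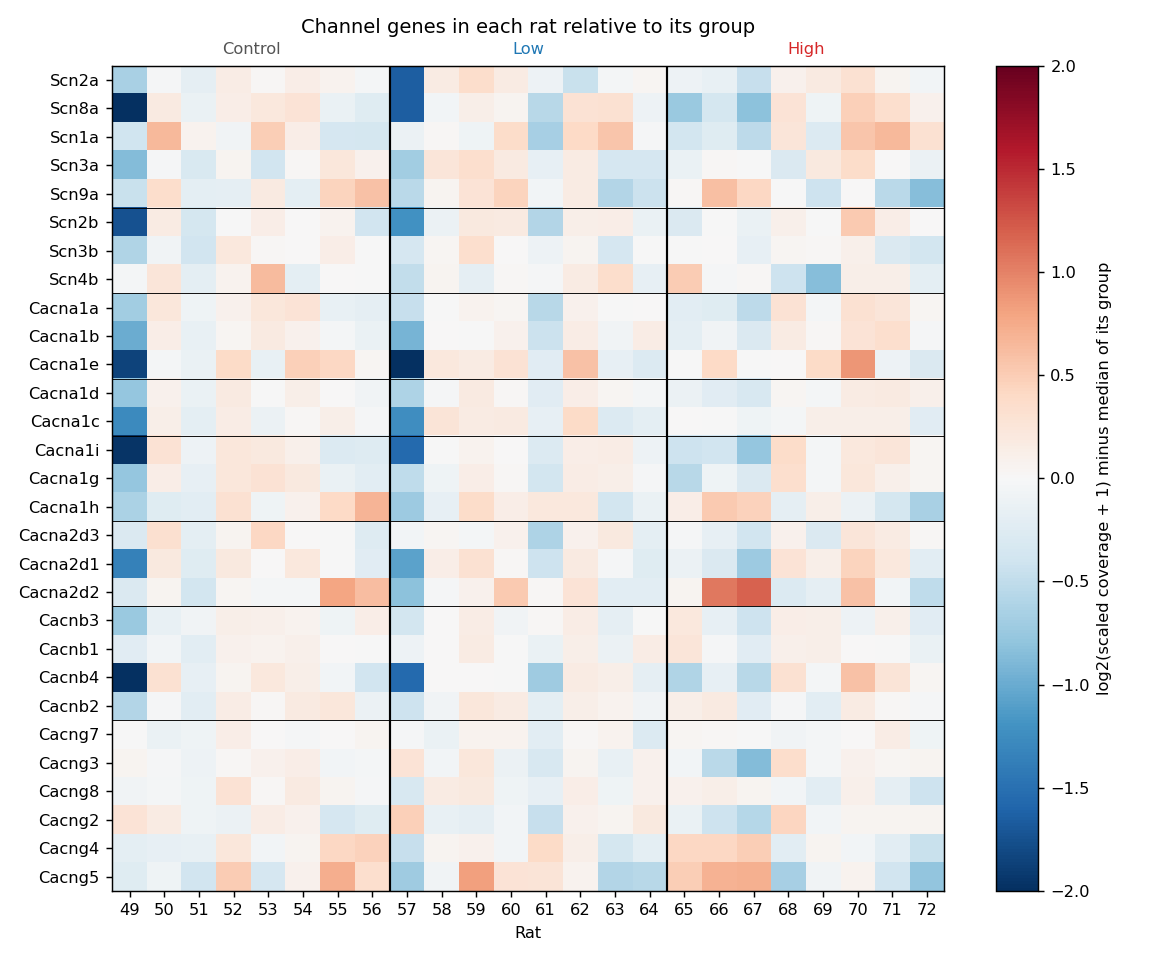
Each cell is log2(scaled coverage + 1) of 1 channel gene in 1 rat, minus the median of its group, with rats in columns and 29 genes grouped by subunit class. The columns of Control rat 49 and Low rat 57 are blue for Scn8a, Scn2b, Cacna1e, Cacna1i, Cacna2d1 and Cacnb4 and near white for Cacng7, and High rats 66 and 67 are red for Cacna2d2 and Cacng5 and blue for Cacng3.

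Assembled loci bear on these low values. Besides the reference genes, the Control and High tables list loci that the program built from the reads of each rat, and in all 16 of these tables such a locus lay over 27 of the 31 tested members on the same strand. For 9 of the 27 the assembled locus ran more than 1000 bases past the 3′ end of the reference gene at the median of the tables. The extension was 7333.5 bases for Cacna1e, 5250 for Cacna1c, 4440 for Cacnb4, 4331.5 for Scn8a, 3443 for Cacna2d1, 3421.5 for Scn2b, 2739.5 for Cacna1i, 2191.5 for Cacng2 and 1389 for Cacna1d. At the 5′ end the median extension was far longer for Cacna1c (346736 bases) and Cacnb4 (120960), and at most 850 (Cacng2) for the others. The contrasts for Cacna1c and Cacnb4 therefore do not concern the 3′ end alone. Among these 9 genes are the 7 members that lay furthest below their group's median in rat 49. In that rat the reference row of Cacna1c was at 30.2% of the median of the other Control rats, and its assembled locus at 98.4%. For Cacnb4 the 2 values were 21.2% and 75.5%, for Cacna1e 18.3% and 64.9%, for Cacna1i 22.2% and 66.6%, for Cacna2d1 38.0% and 75.5%, and for Scn8a 20.7% and 43.0%. For 6 of the 9 genes the ratio of reference row to locus coverage was lower in rat 49 than in any other Control rat. This was so for 3 of the other 18 members. Both are mean depths over unlike spans, so the ratio is not a part of a whole. Scn2b stayed low in both (29.3% and 41.3%), although its ratio of FPKM to coverage was 2.42 in this rat and at most 1.09 in the other Control rats, and Cacng2 went the other way (129% and 60.1%). The Low tables list 0 assembled loci, so rat 57 could not be examined in this way. RNA integrity is not given in the labels, and its part in these values was not tested.

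**Figure D4:**
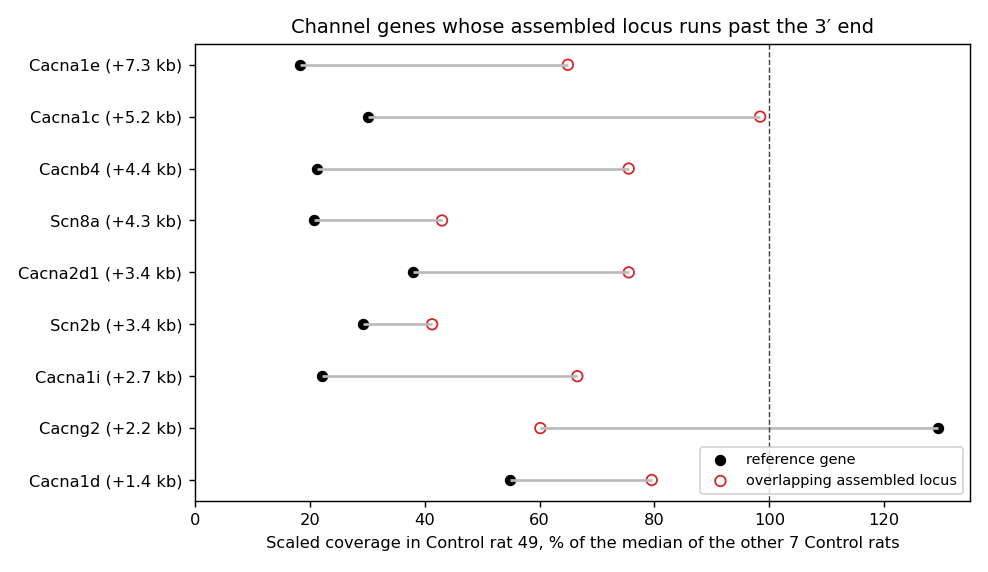
Level in Control rat 49 as a percentage of the median of the other 7 Control rats, for the 9 channel genes whose assembled locus extends past the 3′ end, with the length of the 3′ extension in brackets. The loci of Cacna1c and Cacnb4 also run far past the 5′ end. Filled points are the reference rows and open points the assembled loci, and the open points lie to the right for 8 genes and to the left for Cacng2.

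Leaving out rats 49 and 57, a choice made after their low values in these same genes were seen, changed the calls. The adjusted p of the fit without both rats do not take that choice into account. High rats 67 and 72, the lowest of their group for 15 and 11 of 31 members, were kept. High against Control then had 2 of 31 members with an adjusted p under 0.05, against 2.49% of all genes. Cacna1e fell by 0.82 on the log2 scale (SE 0.16, adjusted p = 0.0088) and Cacna2d1 by 0.58 (SE 0.14, adjusted p = 0.031). Low against High had 10 of 31, all higher in Low, against 28.8% of all genes, a share close to that background. The 10 were Cacna1e (log2 fold change 0.85), Cacnb4 (0.73), Cacna2d1 (0.70), Scn8a (0.65), Cacna1i (0.45), Scn2a (0.32), Scn3a (0.32), Cacna1g (0.31), Cacnb2 (0.28) and Cacna1d (0.22). Low against Control stayed at 0 members, against 4.32% of all genes. With only rat 57 left out, Low against High had 2 calls, Cacna2d1 (adjusted p = 0.020) and Cacna1e (adjusted p = 0.029), against 15% of all genes. With only rat 49 left out it had 1, Cacna2d1 (adjusted p = 0.025), against 17.1%. There was also 1 call without High rat 68, Cacng3 (0.38, adjusted p = 0.040), against 10.7% of all genes, and 1 without High rat 72, Scn9a (-0.63, adjusted p = 0.042), against 9.7%. Each of the counts with only 1 rat left out is, out of 31 members, a smaller share than that of all genes.

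A second pattern set other rats apart. In the High group, rats 65, 66 and 67 had the highest Cacng4 (52.7 to 55.9, others 28.7 to 40.8) and the highest Cacng5 (15.6 to 18.4, others 5.80 to 11.3) of their group. They also had the lowest Scn8a of the group (33.3, 43.8 and 31.1, others from 52.8 to 78.4) and the lowest Cacnb4. Cacng3 was 54.9 in rat 67 and 68.7 in rat 66, the lowest of the group, and at least 97.0 in the others. In Control, rats 55 and 56 had the highest Cacng4 (53.9 and 55.9), Cacna1h (23.6 and 28.9) and Cacna2d2 (45.5 and 40.3), but they shared only part of the pattern. Their Cacng5 was 19.0 and 14.3, with 16.3 in rat 52, and their Cacng3 was 92.2 and 93.3, above the 89.0 of rat 51. Scn8a and Cacnb4 were lowest in rat 49. In turn Cacna2d2 was 28.1, 57.3 and 62.5 in High rats 65, 66 and 67, with 41.0 in rat 70.

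Markers of striatum were high in the same rats, though not in these alone. Their sum over 8 of 8 genes was 1698, 1061 and 1243 in High rats 65, 66 and 67, and 222 to 507 in the other High rats. It was 1062 and 918 in Control rats 55 and 56, with 909 in rat 49 and 455 to 707 in the other Control rats. Rat 49, with a striatum sum close to that of rat 56, had the lowest Cacng4 (35.0) and Cacna1h (11.04) of Control and a Cacng5 of 9.23. The sum reached 778 at most in Low, with a lowest value of 319, and none of the 8 markers was at 0 in any rat. Markers of parvalbumin interneurons had sums of 119 and 166 in High rats 67 and 66 and 175 and 207 in Control rats 55 and 56, the lowest of their groups. In High rat 65 the sum was 208, above the 189 of rat 69. The parts of these markers in the channel values were not tested. In bulk tissue, fewer cells of a type and less RNA per cell cannot be told apart.

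The FPKM column gave another picture of the Low group. In a given table FPKM is coverage times a constant for most genes, and relative to that constant the ratio was near 1 in Control and High for most members. In all 8 Low tables it was raised for several pore genes, from 2.86 to 3.34 for Cacna1c, 2.82 to 2.88 for Cacna1e, 1.88 to 1.99 for Cacna1d, and 1.53 to 1.61 for Cacna1b. For Scn1a it was 1.80 to 1.81 in Low, against 1.12 to 1.38 in Control. The median ratio passed 1.5 for 7 of 31 members in Low and for 0 in Control and High, while over all genes tested the shares were 7.17%, 4.72% and 4.83%. With FPKM of the reference genes brought to the same total in each rat, an alternative added after seeing the data, 4 members were higher in Low than in Control, against 11.8% of all genes. They were Cacna1e (log2 fold change 1.26, adjusted p = 0.017), Cacna1c (1.13, adjusted p = 0.00038), Cacna1d (0.88, adjusted p = 5.3e-06) and Cacna1b (0.47, adjusted p = 0.049). Low against High had 6 such members, against 16.8% of all genes, and High against Control had 0, against 0% of all genes. Coverage of Cacna1c, by contrast, had a log2 fold change of -0.23 for Low against Control. The Low group is also the group whose tables list no assembled loci. Dose and the kind of table therefore cannot be told apart for these genes or in any other comparison with Low.

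**Figure D5:**
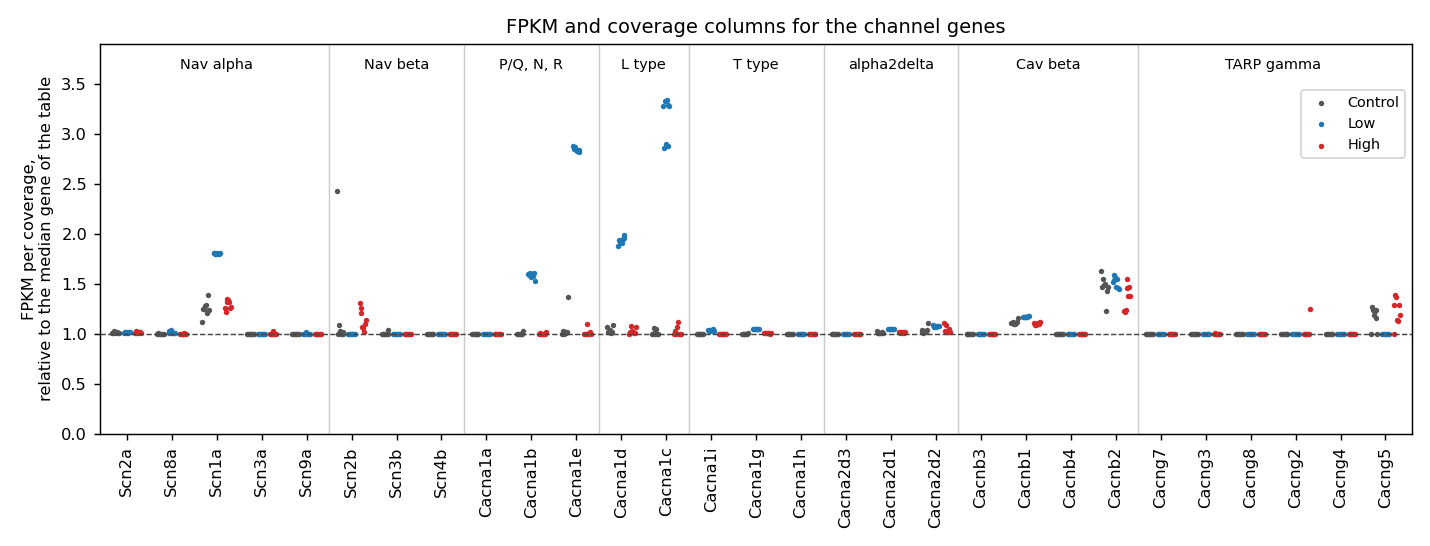
Ratio of FPKM to coverage for 29 of the tested channel genes, relative to the median gene of the same table, with 1 point per rat. The Low points for Cacna1c, Cacna1e, Cacna1d, Cacna1b and Scn1a lie above those of all Control and High rats, and most other genes lie near 1.

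Genes whose products bind these channels were read from lists. Of the sodium channel partners (the Fgf11 to Fgf14 family, ankyrins, spectrins, cell adhesion molecules of the initial segment, Nedd4 ligases and calmodulins), 15 of the 16 listed names were in the tables, with 1 of them listed under 2 gene identifiers, and 0 passed the adjusted threshold in any comparison. Their median log2 fold change was 0.071 for Low against Control, -0.077 for High against Control and 0.17 for Low against High. Of 19 calcium channel partners tested, 1 passed, in both comparisons with Low, in which 6.11% and 11.7% of all genes were called. Cabp1, a calcium sensor that binds Cav1.2 and Cav2.1, ranged from 15.1 to 27.2 in Low and from 22.4 to 57.9 in Control. In High it ranged from 19.8 to 53.7. Its log2 fold change was -1.0 for Low against Control (SE 0.18, adjusted p = 0.00041) and -0.79 for Low against High (SE 0.18, adjusted p = 0.0043). The direction depends on the column used. FPKM brought to the same total gave 0.078 (adjusted p = 0.90) and 0.67 (adjusted p = 0.048), and the ratio of FPKM to coverage for Cabp1 was 11.1 at the median of Low and 4.5 at that of Control. Libraries 56 to 62 are a run grouped in an earlier analysis from a pattern in the data and not from a label. With this run as a covariate neither call held (adjusted p = 0.075 and 0.36), and 2.31% and 2.26% of all genes were called. All libraries of the run but 56, a Control rat, are Low. The covariate therefore overlaps with the Low group, and the loss of the calls cannot be told apart from that overlap.

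Among 9 AMPA receptor genes and their partners, 2 were higher in Low than in High, a comparison in which 11.7% of all genes were called. Gria3 was higher by 0.38 on the log2 scale (SE 0.12, adjusted p = 0.036) and Gria2, the subunit that keeps the receptor from passing calcium, by 0.24 (SE 0.070, adjusted p = 0.025). Neither held without scaling (adjusted p = 0.75 for Gria3 and 0.98 for Gria2) or with libraries 56 to 62 as a covariate (0.28 and 0.37). That covariate overlaps with the Low group, as described for Cabp1, so the latter loss cannot be told apart from the overlap. The call for Gria3 was also lost on leaving out Low rat 58, 59, 62 or 64 or High rat 65, 66 or 67, with adjusted p from 0.056 to 0.082, with median-of-ratios scaling (0.11) and with the exact Wilcoxon rank-sum test (0.062). That for Gria2 was lost on leaving out Low rat 59 or 62 or High rat 72, with adjusted p from 0.056 to 0.064, and held with the exact Wilcoxon rank-sum test (0.032).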

How the data were processed

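Frontal cortex RNA of 24 rats was analysed, 8 per group, with groups taken from the sample labels. Libraries were made with a stranded mRNA kit. The submitters' processing notes name FastQC, Trimmomatic, TopHat2, StringTie and the build mRatBN7.2, with no versions. Positions are those of the tables, and the build they refer to was not settled here. The authors deposited 1 StringTie gene table per rat, with coverage as an unscaled signal (mean read depth per base), FPKM and TPM. The deposited TPM column of the Control and High tables does not sum to 1000000 and was treated as a score. No count test was run, as the tables hold no reads per gene.

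Coverage was added up per reference gene identifier and brought to a total of 1000000 in each rat. Genes averaging 1 or more were tested with limma 3.58.1 (trend, robust; R 4.3.3) on log2(value + 1), on which fold changes of low genes come out too small, with all 3 groups in 1 fit, two-sided, and Benjamini-Hochberg adjustment over 15644 genes at 0.05. The fit was tested on simulated data. Of the 31 members tested, 29 are reported singly, and the others are counted but not reported here. Among those 29, full values are given for the 3 highest members of each class in Control and the 3 largest changes each way per comparison. The members, lists and this rule were chosen with earlier results of these data known. Each rat is a separate animal of its group. Promoter windows came from the RefSeq table, with both strands searched. Python 3.11.15, numpy 2.4.6 and pandas 2.3.3 were used. Alternatives are given in the closing section.

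Lists of cell type markers were read as counts past the threshold and as summed levels. In all 3 comparisons 0 genes passed of the neuron (6), parvalbumin interneuron (3), striatum (8), oligodendrocyte (5), oligodendrocyte precursor (2), astrocyte (4), microglia (4), endothelium (1 tested), choroid plexus (1 tested), blood (3), skeletal muscle (1 tested) and sensory neuron (3) lists.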

Additional observations from a re-analysis of the deposited data

Results flagged for a closer look

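Over 93 sets of 8 rats (31 channel genes in 3 groups), a sample lay far from the others of its group in 12 cases, where the gap to the nearest rat exceeded Dixon's 95% critical value. Chance flags about 1 in 20 such sets. Control rat 49 accounts for 9 of the 12, as the lowest of its group. Its scaled coverage was 101 for Cacnb3 (next rat 152), 7.59 for Cacna1d (12.5), 1.68 for Cacna1c (4.62), 15.7 for Scn8a (58.4), 49.6 for Scn2b (129), 13.9 for Cacna1b (25.7), 1.59 for Cacna1e (7.42), 9.05 for Cacna1i (31.3) and 26.0 for Cacna2d1 (57.7). Low rat 57 was lowest for Cacna1i at 12.2 (next rat 31.0). Scn2b was highest in High rat 70 at 196 (next rat 149), and Scn4b was highest in Control rat 53 at 103 (next rat 79.1).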

How the results depend on the processing

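The channel genes tested (31 in the reported test, 28 to 40 with another filter or scaling) had 0 calls in all 3 comparisons with a pseudocount of 0.1, no filter, a minimum mean of 5, no scaling, scaling to nuclear genes, only the compared groups, the exact Wilcoxon rank-sum test and libraries 56 to 62 as a covariate. That covariate overlaps with the Low group. Median-of-ratios scaling gave 1 call of 33 tested for Low against High, Scn9a at -0.75, against 11.2% of all genes. The FPKM column gave 26 calls of 29 tested for Low against Control (median 0.62) and 27 for Low against High (median 0.63), where 89.7% and 89.8% of all genes were called and the median over all genes was 0.53 and 0.52. The TPM column gave 7 and 8 calls (25.4% and 25.2% of all genes), and FPKM brought to the same total, an alternative added after seeing the data, gave 4 and 6 (11.8% and 16.8%). Leaving out rats 49 and 57 together, also added, gave 2 calls for High against Control and 10 for Low against High (2.49% and 28.8%). Cacna1c for Low against Control turned to 1.38 with FPKM, 1.23 with TPM and 1.13 with FPKM at the same total, and Cacna2d2 for Low against High to 0.19 with FPKM. Leaving out each rat in turn gave 0 to 2 calls for Low against High, and 0 for the other comparisons. In that series Cacnb4 for Low against Control ran from -0.022, without Control replicate 49, to 0.42, without Low replicate 57. Over single genes, 613 values kept their direction and side of the threshold, 19 passed it and 5 turned direction. The cause of these changes was not tested. Depth could not be taken into account, since the tables hold no read counts. No paired analysis was possible because the groups share no replicate numbers.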
